A study of Mus musculus with 9 samples.

Results

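Fibres of the mouse muscle line C2C12 that had received a one-carbon metabolite medium (1C-MIM) were compared with fibres that had received a scramble medium. The comparison rests on 6 of the 9 RNA sequencing libraries of the series, 3 per medium, chosen by the treatment in their labels; the other 3 libraries, from control fibres in normal medium, give the background. All 9 libraries come from WT C2C12 cells that were differentiated in DMEM with 2% FBS and are labelled day 3. The 1C-MIM adds 6 metabolites of the one-carbon network to the medium of differentiated fibres, and the scramble medium adds 6 metabolites from outside it. Both media thus have the same number of additions, and the comparison asks which RNA levels differ between the 2 sets. Which metabolites these were, and at what dose, the sources used here do not say. C2C12 is a single line and the labels name no separate cultures, so the p-values speak only to the spread among the libraries, and that spread could be technical.

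In low serum C2C12 myoblasts stop dividing and fuse into fibres with many nuclei, while some cells of a culture stay mononuclear as reserve cells. One-carbon metabolism carries carbon units on folate. The units serve the synthesis of purines and thymidylate, and turn homocysteine into methionine, the source of S-adenosylmethionine, which donates methyl groups to DNA, histones, creatine and phospholipids. Homocysteine can also leave the cycle by transsulfuration, which yields cysteine and, from it, glutathione and taurine.

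The deposited tables hold counts per transcript, and where a gene has several transcripts the one with the most counts, averaged over the 9 libraries, stood for it. Counted that way, the 6 libraries held 29.0 to 31.8 M counts, and 14006 genes passed the filter on low counts. On the first principal component of the 6 libraries, with 74.6% of the variance, the 1C-MIM libraries scored -36.1 to -28.8 and the scramble libraries 30.1 to 33.5. On the second component, with 8.52%, the library numbered 1 of each group stood highest, at 16.5 in 1C-MIM and 13.9 in scramble. Levels below are CPM, counts scaled by the normalized library size, given for libraries 1, 2 and 3 of a group in that order. Differences are log2 values, 1C-MIM minus scramble, ± SE, and adjusted p comes from edgeR's quasi-likelihood test with Benjamini-Hochberg adjustment over all 14006 genes. A gene is called, and written of as higher or lower, at an adjusted p below 0.05. In bulk RNA, fewer cells of a kind and less RNA per cell cannot be told apart.

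The 2 media left widely different transcriptomes, while the scramble medium stood close to normal medium. Of the tested genes 6449 (46%) passed the test between 1C-MIM and scramble: 3202 (22.9%) had the higher level with 1C-MIM and 3247 (23.2%) the lower. These shares are the base against which the counts of each gene list below are to be read. A called difference of at least 2-fold was seen in 942 genes (6.73%), 394 of them higher (2.81%) and 548 lower (3.91%). The 2 groups of 3 libraries did not overlap in 8336 genes (59.5%). Groups that do not overlap, given below for genes picked by small p, therefore describe the values and add no support. The median absolute difference over all tested genes was 0.23 on the log2 scale, and 0.40 over the called genes. Between scramble and control edgeR called 0 genes (0.0%), with a smallest adjusted p of 0.167 and 482 genes (3.44%) at an unadjusted p below 0.05. DESeq2 called 4 there, and edgeR called 3 without control replicate 1 and 96 without the 3 libraries numbered 1. The median absolute difference between scramble and control was 0.06. A difference of at least 2-fold in either direction was seen in 1042 genes between 1C-MIM and scramble and in 39 between scramble and control, and none of those 39 had a mean of 5 CPM or more. Both comparisons use the scramble libraries, so they are set side by side here as values.

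**Figure D1:**
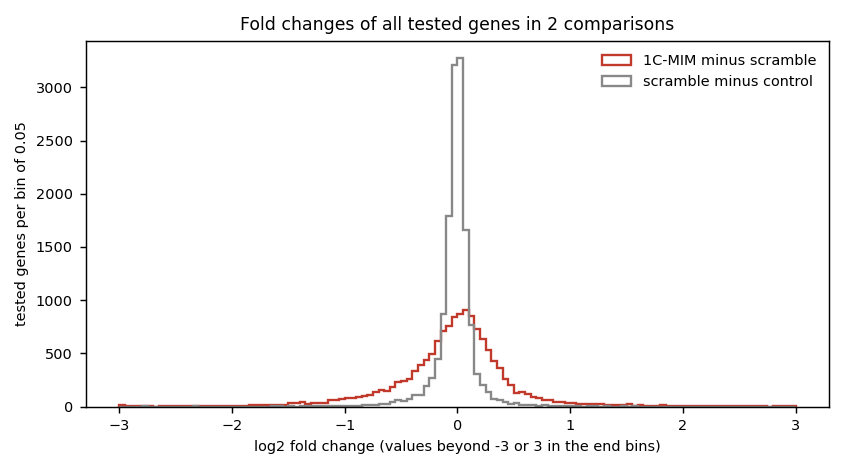
Number of tested genes (y axis) per bin of log2 fold change (x axis) for 1C-MIM minus scramble (red) and scramble minus control (grey). The median absolute value was 0.23 in the first comparison and 0.06 in the second.

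The genes named as largest rises and falls were called, averaged 5 CPM or more over the 6 libraries and did not overlap between the groups, so genes with lower means are not ranked. Angptl7, Tnfsf11, Npy1r, Stc1 and Sema3g reached that mean only through the 1C-MIM libraries, and their folds have a low scramble level as base. Among the falls, Inmt and Gja5 reached it only through the scramble libraries. The same may hold for rises and falls given below by their log2 value alone. Angptl7, a secreted angiopoietin-like protein, stood at 16.6, 37.8 and 53.7 CPM in 1C-MIM and at 0.313, 0.273 and 0.238 CPM in scramble (7.01 ± 0.62, adjusted p = 9.2e-05). Tnfsf11, the cytokine RANKL that drives osteoclast formation, stood at 7.64, 14.3 and 22.9 CPM against 0.470, 0.341 and 0.543 CPM (5.03 ± 0.47, adjusted p = 5.1e-05). In both genes library 1 was the lowest of the 3 in 1C-MIM, and the control means, 0.268 and 0.347 CPM, were at the scramble level. Npy1r, a receptor for neuropeptide Y, had 8.42, 17.7 and 32.4 CPM against 0.595, 1.19 and 1.12 CPM (4.34 ± 0.57). Stc1, a secreted stanniocalcin, had 5.95, 21.7 and 64.6 CPM against 0.939, 0.649 and 1.02 CPM (5.14 ± 1.00, adjusted p = 0.0050). For Stc1 the 3 1C-MIM libraries lay far from each other, and limma-voom did not call it.

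In 3 other large rises the 1C-MIM libraries lay close together. Cdkn1c, an imprinted inhibitor of cyclin-dependent kinases, stood at 91.1, 70.0 and 91.3 CPM in 1C-MIM and at 7.98, 6.79 and 7.70 CPM in scramble (3.49 ± 0.11, adjusted p = 8.3e-08). Sema3g, a secreted semaphorin, stood at 17.8, 18.3 and 19.7 CPM against 1.47, 1.5 and 1.12 CPM (3.76 ± 0.17). Mest, an imprinted gene of the mesoderm lineage, had 303, 345 and 344 CPM against 41.3, 35.4 and 24.6 CPM (3.29 ± 0.17). These 3 genes were between 9.78 and 13.5 times as high in 1C-MIM as in scramble. The remaining rises among the 15 largest at that mean level were the clock output factor Hlf (3.95), the chymotrypsinogen gene Ctrb1 (3.36), the proteoglycan gene Lum (2.92), the natriuretic peptide gene Nppc (2.91), the lymphocyte receptor gene Btla (2.75), the carboxypeptidase gene Cpa4 (2.65), Dbh, which makes noradrenaline from dopamine (2.62), and the cannabinoid receptor gene Cnr1 (2.44).

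The 15 largest falls, ranked under the same limit of 5 CPM, included genes known from neurons, epithelia and slow or cardiac muscle. Inmt, which methylates indoles and other amines with S-adenosylmethionine, stood at 1.51, 0.656 and 0.168 CPM in 1C-MIM and at 12.2, 8.50 and 11.4 CPM in scramble (-3.79 ± 0.57, adjusted p = 0.0010). Gja5, which encodes connexin 40, stood at 1.66, 1.14 and 1.41 CPM against 22.6, 14.6 and 11.2 CPM (-3.52 ± 0.57, adjusted p = 0.0020). Stmn2, a tubulin-binding protein of neurons, had 20, 17.3 and 16.0 CPM against 88.2, 101 and 96.0 CPM (-2.42 ± 0.14, adjusted p = 2.2e-06). That all 3 genes were lower in each 1C-MIM library than in any scramble library follows from the choice of genes. Myl2, the regulatory light chain of slow and cardiac myosin, had 30.5, 33.7 and 29.4 CPM against 145, 143 and 157 CPM (-2.25 ± 0.10). Col14a1, a collagen that associates with fibrils, had 41.8, 30.6 and 26.8 CPM against 169, 128 and 148 CPM (-2.17 ± 0.22). The other falls among these 15 were Sprr1a (-2.72) and the keratin gene Krt19 (-2.56), both of epithelia, the neurofilament genes Nefm (-2.63) and Nefl (-2.46), the receptor gene Gpr35 (-2.55), the collagen gene Col8a2 (-2.38), the fatty acid activating enzyme gene Acsbg1 (-2.30), the phosphatase gene Cdkn3 (-2.14), the RNA-binding protein gene Celf4 (-2.14) and the mitochondrial adenylate kinase gene Ak4 (-2.05).

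**Figure D2:**
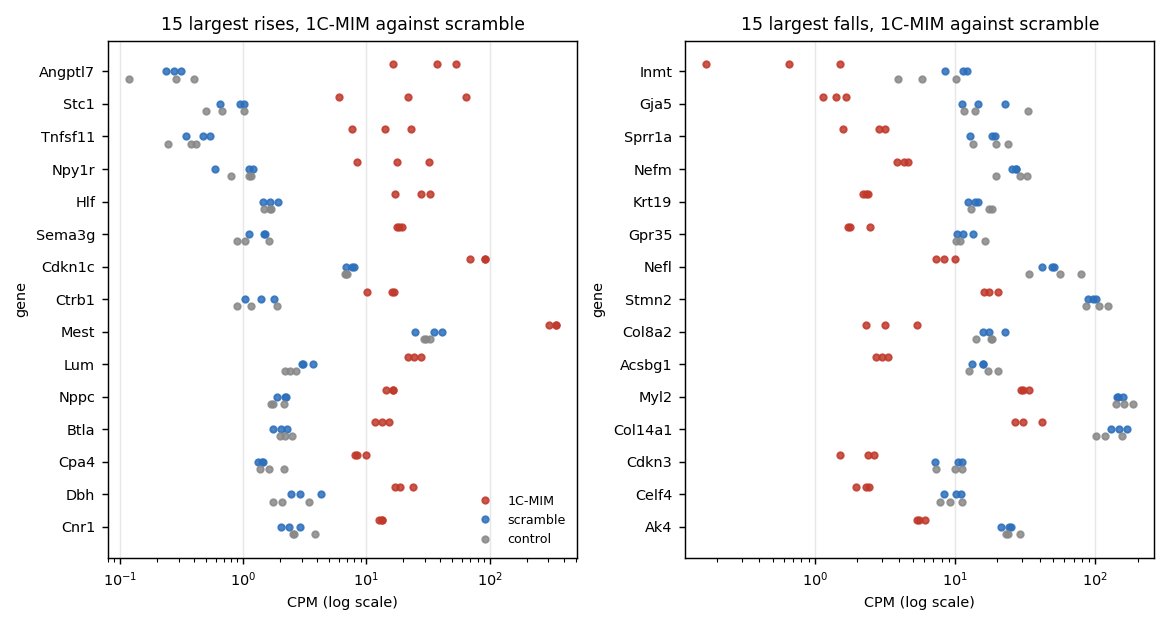
Level of the 15 largest rises (left) and 15 largest falls (right) in each library, in CPM on a log axis, with 1 point per library and colours for 1C-MIM, scramble and control. The genes were chosen among those of at least 5 CPM whose groups do not overlap, so the gap in each row follows from the choice. Angptl7 runs from 16.6 to 53.7 CPM in 1C-MIM and Inmt from 0.168 to 1.51 CPM.

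Levels of different genes can be set side by side only per transcript length, so the deposited TPM were used for the share of RNA that moved. The largest gain was in Col3a1, a chain of fibrillar collagen, from a mean of 1724 TPM in scramble to 3891 TPM in 1C-MIM. Igfbp5, a binding protein of insulin-like growth factors, went from 532 to 1299 TPM, and the gelatinase gene Mmp2 from 435 to 1040 TPM. Myog, the myogenic factor of terminal differentiation, went from 348 to 810 TPM. The largest losses were in the galectin gene Lgals1, from 4547 to 3104 TPM, and in Vim, which encodes the intermediate filament protein vimentin, from 2639 to 1357 TPM. Vim had 1885, 1775 and 1647 CPM in 1C-MIM against 3358, 3585 and 3536 CPM in scramble (-0.98 ± 0.11). The imprinted RNA H19 fell by 0.35 ± 0.07 on the log2 scale; Mir675, whose precursor lies in an H19 exon, is counted from the same reads and is not a separate result. Eno1 and Eno1b are near-identical copies with almost equal counts in each library, so how their reads divide is uncertain.

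Myogenic transcription factors were mostly higher in 1C-MIM. Of 20 tested, 12 were higher and 4 lower, with differences from -1.37 to 1.69. The median log2 difference was 0.46, and over all tested genes it was -0.000428. The called factors named here are all from the higher ones. Myog stood at 927, 779 and 850 CPM in 1C-MIM and at 415, 345 and 354 CPM in scramble (1.2 ± 0.15, adjusted p = 1.6e-04). Myod1, which commits cells to the muscle lineage, had 237, 214 and 222 CPM against 173, 152 and 152 CPM (0.50 ± 0.06). For both factors each 1C-MIM library was above all 3 scramble libraries. The homeobox factor Six4 (0.68), the E protein Tcf12 (0.62), Srf (0.46) and the satellite cell factor Pax7 (0.34) were higher too. Myf5, with 31.0, 31.2 and 33.1 CPM against 33.1, 32.5 and 30.1 CPM, overlapped between the groups.

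Contractile genes did not move as a block. Of 63 sarcomere genes tested, 5 were higher and 10 lower, with a median of 0.01, so 23.8% were called, against 46% over all genes. The thick filament group had 0 higher and 4 lower of 20, with a median of -0.47. There the embryonic light chain gene Myl4 stood at 403, 375 and 347 CPM in 1C-MIM and at 728, 717 and 713 CPM in scramble (-0.94 ± 0.07), and the fast light chain gene Mylpf was lower by less (-0.29). The embryonic heavy chain gene Myh3, at 1635, 1248 and 1051 CPM against 1637, 914 and 863 CPM, overlapped between the groups. In the thin filament group 4 of 19 genes were higher and 1 lower. The smooth muscle actin gene Acta2, which early muscle also expresses, had 2141, 1724 and 1777 CPM against 1096, 1116 and 1151 CPM (0.75 ± 0.08), whereas Acta1, the skeletal actin gene, was not called at 3064, 2458 and 2349 CPM against 2028, 1329 and 1486 CPM. Of 24 Z-disc and titin genes 1 was higher and 5 lower, among them the muscle LIM protein gene Csrp3 (-1.76) and Smpx (-0.69). In each group library 1 had the highest contractile level: its median sarcomere gene lay above the mean of libraries 2 and 3 by 0.20 in 1C-MIM, 0.40 in scramble and 0.74 in control on the log2 scale. When the 3 libraries numbered 1 were left out, 20 sarcomere genes were higher and 18 lower; when control replicate 1 alone was left out, the counts were 10 and 16.

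Genes of excitation-contraction coupling and of the neuromuscular junction were called less often than all genes, at 30.8% in each list against 46%. Of 26 genes of excitation-contraction coupling 6 were higher and 2 lower (13 higher without the 3 libraries numbered 1, and 0 lower without 1C-MIM replicate 2 or scramble replicate 2). Pvalb, the calcium buffer parvalbumin of fast fibres, stood at 20.9, 16.4 and 11.8 CPM in 1C-MIM and at 3.10, 3.07 and 4.24 CPM in scramble (2.23 ± 0.23). Ryr3, a calcium release channel of immature muscle, had 37.1, 30.2 and 30.5 CPM against 15.4, 9.15 and 9.84 CPM (1.5 ± 0.33), while the main channel gene Ryr1 overlapped between the groups. The potassium channel gene Kcnj2 (0.88) and the junction protein genes Jsrp1 (0.50) and Jph2 (0.68) were higher; Jph2 lost its call without 1C-MIM replicate 1 or 3 or scramble replicate 2 or 3. At the neuromuscular junction 3 of 13 genes were higher, the receptor-clustering genes Agrn (0.26), Lrp4 (0.52) and Rapsn (0.17), and 1 was lower (9 and 3 when the libraries numbered 1 were left out, 5 higher without control replicate 1 and 1 higher without scramble replicate 3); Lrp4 and Rapsn each lost their call in fits that left out 1 library, scramble replicate 3 among them. Of 20 genes of the dystrophin complex 6 were higher and 4 lower: Dag1, which encodes dystroglycan, had 674, 621 and 601 CPM against 419, 366 and 386 CPM (0.70 ± 0.10), and the sarcoglycan gene Sgcd was lower (-0.98). Of 26 fusion and adhesion genes 5 were higher and 8 lower, with Adam12, a membrane protease of fusing cells (1.5), and the muscle cadherin gene Cdh15 (0.60) up, and Cav3 (-0.87) and Jam2 (-0.70) down. Of 9 genes of creatine and phosphate buffering 4 were higher and 1 lower (3 lower without the libraries numbered 1), and the muscle creatine kinase gene Ckm had 147, 113 and 110 CPM against 69.5, 52.0 and 53 CPM (1.08 ± 0.22). The creatine synthesis enzymes split, with Gamt, which uses S-adenosylmethionine, higher (0.56) and Gatm lower (-0.35).

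Genes of mitosis were lower in 1C-MIM without exception among those tested. All 61 were called lower, with differences from -1.53 to -0.39 and a median of -1.01, and 32 differed by at least 2-fold. Spindle and motor genes (19), kinetochore and checkpoint genes (18) and kinases, cohesin, condensin and exit factors (24) had medians of -1.0, -0.98 and -1.03. Anln, the actin-binding anillin of the cleavage furrow, stood at 94.9, 92.9 and 89.4 CPM in 1C-MIM and at 215, 261 and 261 CPM in scramble (-1.41 ± 0.12, adjusted p = 1.3e-05). Cenpe, a kinetochore motor, had 51.5, 46.8 and 41.8 CPM against 99.2, 116 and 117 CPM (-1.24 ± 0.10). Espl1, the separase that cuts cohesin, had 27.5, 23.3 and 22.7 CPM against 47.9, 55.6 and 54.5 CPM (-1.10 ± 0.10). In all 3 genes the groups were apart, and library 1 was the highest of its group in 1C-MIM and the lowest in scramble. All 10 cyclins and kinases of the S, G2 and M phases were lower as well (median -1.04), among them Ccnb2 (-1.49), Cdc25c (-1.42) and Wee1 (-0.68). Markers of myoblasts and reserve cells summed to 955 to 1020 TPM in 1C-MIM and 739 to 814 TPM in scramble, with 6 of 11 higher and 2 lower, Cd34 (-1.44) and Sdc3 (-0.97); their part in the cell division result was not tested.

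Many mitotic promoters share the cell-cycle homology region, a short element bound by the DREAM and MuvB complexes. The letters TTTGAA, read on both strands from 250 bases before to 50 after the RefSeq start, stood in 42 of 56 promoters of 51 mitosis genes (75%), in 12% of 13146 promoters of 10320 tested genes and in 17.9% of all 32851 promoters. For the 33 of 42 replication genes that matched a promoter it was 13.2%. The promoters of 3 mitosis genes with small p are shown from 250 bases before to 30 after the start, with TTTGAA in capitals: Cdca8 of the chromosomal passenger complex (chr4:124936888-124937167, minus strand), Ncapg of condensin (chr5:45669675-45669954, plus strand) and Espl1 (chr15:102296043-102296322, plus strand), all from RefSeq on GRCm38.p6.
Cdca8: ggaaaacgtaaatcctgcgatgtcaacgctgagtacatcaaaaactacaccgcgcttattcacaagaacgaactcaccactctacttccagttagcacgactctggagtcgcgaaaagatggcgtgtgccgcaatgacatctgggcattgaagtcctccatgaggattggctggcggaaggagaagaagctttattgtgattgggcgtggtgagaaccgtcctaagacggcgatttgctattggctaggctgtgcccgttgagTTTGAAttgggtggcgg
Ncapg: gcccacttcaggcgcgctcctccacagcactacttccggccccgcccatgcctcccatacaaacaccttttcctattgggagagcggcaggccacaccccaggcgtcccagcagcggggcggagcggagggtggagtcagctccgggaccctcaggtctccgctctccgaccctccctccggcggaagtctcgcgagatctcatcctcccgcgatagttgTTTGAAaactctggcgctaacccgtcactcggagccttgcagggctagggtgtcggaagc
Espl1: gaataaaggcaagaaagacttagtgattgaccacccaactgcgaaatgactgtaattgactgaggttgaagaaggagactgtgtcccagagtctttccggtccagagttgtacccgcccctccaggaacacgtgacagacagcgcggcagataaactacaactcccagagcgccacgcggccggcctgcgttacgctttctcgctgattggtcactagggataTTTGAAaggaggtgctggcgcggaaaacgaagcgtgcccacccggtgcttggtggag
The element begins 30 bases before the start in Ncapg, 27 before it in Espl1 and at base 14 after it in Cdca8. A match is a description of the letters and not a tested site. In 1C-MIM Cdca8 stood at 21.5, 20.6 and 20.2 CPM against 40.5, 49 and 45.4 CPM in scramble, and Ncapg at 28.7, 28.7 and 26.4 CPM against 53.1, 61.9 and 59.9 CPM, so both were lower by about the list's median (-1.11 and -1.06).

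Replication genes were lower by less than mitosis genes, and the entry into the cycle was split. Of 42 replication genes 27 were lower and 1 higher, with a median of -0.35; Gins2 of the helicase (-0.87), the primase gene Prim1 (-0.69), the polymerase gene Pole (-0.62) and the ligase gene Lig1 (-0.52) were the clearest. The letters TTTGGCGC or TTTCCCGC, forms of the E2F element, stood in 31.6% of the 38 promoters of replication genes, in 8.93% of mitosis promoters and in 2.73% of tested genes' promoters. Of 10 G1 cyclins and kinases 3 were higher and 3 lower. Ccnd1, the cyclin that carries growth signals into G1, had 67.1, 60.7 and 57.4 CPM in 1C-MIM against 158, 174 and 181 CPM in scramble (-1.47 ± 0.12, adjusted p = 1.2e-05), and the p53 target Ccng1 was higher (0.50). All 6 CDK inhibitor genes tested were called, in both directions. Beside Cdkn1c, Cdkn1a, which encodes p21, was higher at 808, 701 and 797 CPM against 557, 413 and 389 CPM (0.76 ± 0.23, adjusted p = 0.025), a call lost without 1C-MIM replicate 1 or 3 or scramble replicate 2 or 3. Cdkn1b (-0.33), Cdkn2c (-0.36), Cdkn2d (-0.83) and Cdkn3, a phosphatase that removes the activating phosphate of CDKs, were lower. Among 20 genes of the retinoblastoma and E2F group 6 were higher and 8 lower (3 higher without scramble replicate 3), with the mitotic activators Foxm1 (-0.72) and Mybl2 (-0.61) and the repressor E2f7 (-0.86) lower and the quiescence factor E2f4 higher (0.50).

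Targets of p53 leaned upward. Of 28 tested, 16 were higher and 4 lower, with a median of 0.31; the count of lower genes was 1 to 2 without 1C-MIM replicate 2 or 3, control replicate 3 or any scramble replicate. Zmat3, an RNA-binding splicing factor, stood at 53.2, 48.1 and 52.5 CPM in 1C-MIM and at 24.6, 25.3 and 23.9 CPM in scramble (1.06 ± 0.06, adjusted p = 6.3e-07). Trp53inp1 had 67.0, 75.6 and 86.7 CPM against 32.2, 36.2 and 35.4 CPM (1.14 ± 0.10). Neither gene overlapped between the groups. The nuclease gene Aen (0.69), Sesn2 (0.53) and the stress cytokine gene Gdf15 (0.86) were higher as well.

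Targets of hypoxia-inducible factor (HIF) and glycolytic genes were mostly lower in 1C-MIM. Of 29 hypoxia targets 22 were lower and 0 higher, with a median of -0.61. Car9, a cell surface carbonic anhydrase, stood at 34.8, 36.8 and 42.8 CPM in 1C-MIM and at 117, 114 and 154 CPM in scramble (-1.75 ± 0.14, adjusted p = 1.4e-05). Bnip3, which sends mitochondria to autophagy, had 61.9, 67.3 and 63.5 CPM against 168, 185 and 224 CPM (-1.58 ± 0.11). Pdk1, the kinase that closes pyruvate dehydrogenase, had 78.0, 79.9 and 69.1 CPM against 182, 186 and 208 CPM (-1.34 ± 0.07). No library of one group reached the other in these 3 genes, and scramble replicate 3 was the highest in each. Ndrg1 (-1.37), the lysyl oxidase gene Lox (-0.86), the corepressor gene Rcor2 (-0.69) and the histone demethylase gene Kdm3a (-0.55) followed. The control means of Car9 and Bnip3, 120 and 203 CPM, were at the scramble level.

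The HIF element holds the core ACGTG. Read on both strands over the same window, these letters stood in 21 of 42 promoters of 28 genes of the hypoxia list (50%). That list joins the targets above with genes of oxygen sensing, of which 3 of 7 were higher and 2 lower. The share was 24.9% over tested genes' promoters and 19.6% over all promoters. With GCGTG as a second allowed core the shares were 78.6%, 60.6% and 43.8%. The promoters of Bnip3 (chr7:138909477-138909756, minus strand) and Car9 (chr4:43506776-43507055, plus strand), are shown as examples with the core in capitals; Rcor2 carries it too and is not printed.
Bnip3: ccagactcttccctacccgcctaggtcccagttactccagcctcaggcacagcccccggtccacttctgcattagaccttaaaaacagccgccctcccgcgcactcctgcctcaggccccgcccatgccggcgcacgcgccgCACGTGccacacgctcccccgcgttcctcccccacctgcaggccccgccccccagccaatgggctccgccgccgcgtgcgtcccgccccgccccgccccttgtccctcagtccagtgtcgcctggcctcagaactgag
Car9: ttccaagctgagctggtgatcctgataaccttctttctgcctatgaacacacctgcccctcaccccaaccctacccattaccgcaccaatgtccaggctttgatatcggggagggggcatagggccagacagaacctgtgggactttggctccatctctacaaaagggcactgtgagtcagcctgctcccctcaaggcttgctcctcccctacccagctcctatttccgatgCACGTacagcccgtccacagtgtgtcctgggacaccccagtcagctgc
In Bnip3 the core lies on both strands of one palindrome that begins 108 bases before the start, and in Car9 it lies on the reverse strand, from 18 bases before the start. Whether the factor binds there was not measured.

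RNA of genes from glucose uptake to lactate was mostly lower. Of 35 genes 25 were lower, 0 higher and 10 not called, with a median of -0.63. There were 2 higher without control replicate 1 and 3 without the 3 libraries numbered 1. Among the upper steps Pfkp, a phosphofructokinase, stood at 61.5, 60.7 and 57.7 CPM in 1C-MIM and at 128, 121 and 117 CPM in scramble (-1.02 ± 0.06), and Gpi1 had 395, 382 and 363 CPM against 680, 654 and 707 CPM (-0.84 ± 0.07). Among the lower steps Pkm, the pyruvate kinase gene, had 1547, 1555 and 1525 CPM against 2315, 2409 and 2597 CPM (-0.66 ± 0.08). All 3 enzymes were lower in each 1C-MIM library than in any scramble library. Of 20 glycogen genes 9 were lower and 0 higher (2 higher without the libraries numbered 1), with the phosphorylase gene Pygl (-1.76) and Ugp2, which makes UDP-glucose (-0.53), among them.

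Respiratory chain genes that passed the test were mostly higher, by small amounts, and 40% of the list was called, against 46% over all genes. Of 80 nuclear genes of the respiratory chain 29 were higher and 3 lower, with a median of 0.12; without 1C-MIM replicate 3 there were 19 higher, and the lower count ran from 1, without 1C-MIM replicate 3 or scramble replicate 2 or 3, to 8, without the libraries numbered 1 (5 without control replicate 1). Cyc1, the cytochrome of complex III, stood at 180, 166 and 175 CPM in 1C-MIM and at 125, 129 and 121 CPM in scramble (0.48 ± 0.05). Of 29 genes of the TCA cycle and of enzymes beside it 11 were higher and 4 lower. There were 2 lower without 1C-MIM replicate 2 or scramble replicate 1. Pcx, Idh1 and Me2, named next, are enzymes beside the cycle. Pcx, which makes oxaloacetate from pyruvate, had 86.9, 78.3 and 81.2 CPM against 39.3, 32.8 and 34.9 CPM (1.2 ± 0.14, adjusted p = 1.2e-04), and Idh1, the cytosolic isocitrate dehydrogenase gene, had 365, 359 and 317 CPM against 196, 227 and 228 CPM (0.68 ± 0.08). Both groups of values were apart, and the malic enzyme gene Me2 was lower (-0.60). Of 23 genes of mitochondrial biogenesis and dynamics 3 were higher and 3 lower (5 higher and 7 lower without the libraries numbered 1, and 7 lower without control replicate 1 and 5 without control replicate 3), and the coactivator gene Ppargc1a was higher at a low level, with 1.83, 1.86 and 2.79 CPM against 1.06, 0.580 and 0.849 CPM.

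Genes of ribosome biogenesis were mostly higher, and few ribosomal protein genes passed the test. Of 38 genes of ribosome biogenesis 29 were higher and 0 lower, with a median of 0.31. Nop2, a nucleolar RNA methyltransferase, stood at 97.9, 87.5 and 95.2 CPM in 1C-MIM and at 56.2, 51.5 and 52.4 CPM in scramble (0.81 ± 0.06, adjusted p = 3.7e-06), and Bysl, Ppan, Nol6, Rrp1b and Nol8, all assembly factors, were higher by 0.55 to 0.63. Of 72 cytosolic ribosomal protein genes 8 were lower and 0 higher, so 11.1% were called, against 46% over all genes; the median was -0.12, with Rpl3 (-0.56), Rps20 (-0.50) and Rpl10a (-0.46) the clearest. That count rests on single libraries: it was 3 to 4 without any 1 of the 1C-MIM replicates or without scramble replicate 2 or 3, 13 without scramble replicate 1, 25 without control replicate 1 and 58 without the 3 libraries numbered 1. In library 1 the median ribosomal protein gene lay below the mean of the other 2 libraries by 0.07 in 1C-MIM, 0.22 in scramble and 0.36 in control on the log2 scale.

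**Figure D3:**
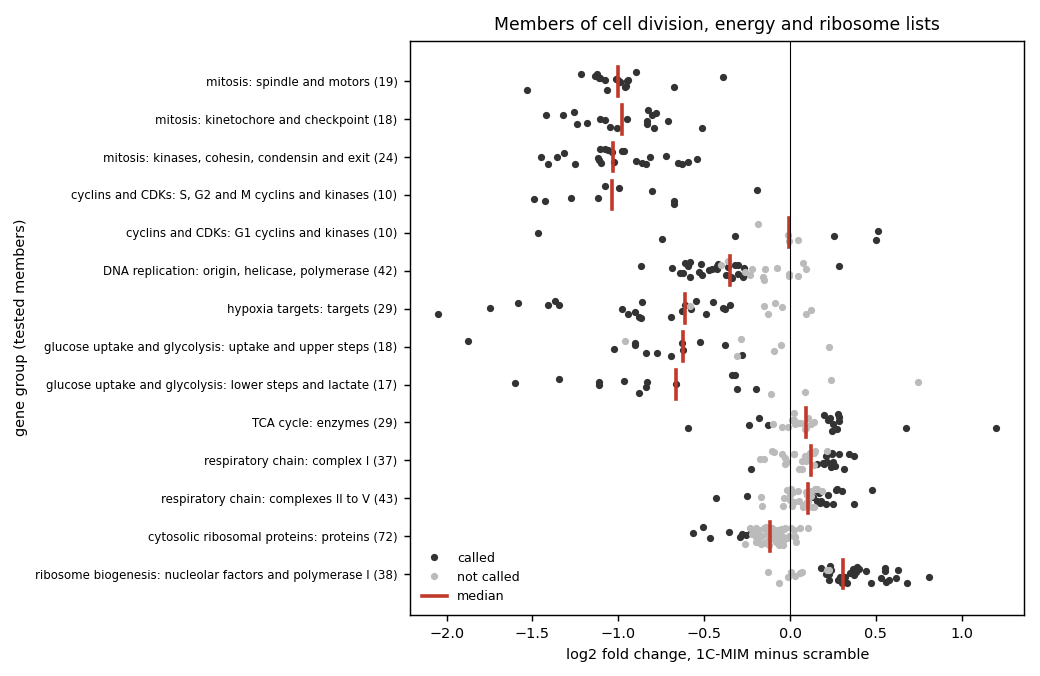
log2 fold change, 1C-MIM minus scramble (x axis), of each tested member of 14 gene groups (rows), with called members dark, the others grey and the median as a red bar. The 3 mitosis groups have medians of -1.0, -0.98 and -1.03, hypoxia targets -0.61, and ribosome biogenesis 0.31.

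Within the one-carbon network itself the share of called genes was near that of all genes. Of 27 folate genes 8 were higher and 5 lower (3 lower without 1C-MIM replicate 2), so 48.1% were called against 46% over all genes, with a median of -0.000914. In the cytosol and at the membrane the reduced folate carrier gene Slc19a1 stood at 17.0, 16.6 and 16.6 CPM in 1C-MIM and at 12.2, 13.6 and 12.9 CPM in scramble (0.38 ± 0.07), and Mthfd1, the trifunctional folate enzyme, had 74.9, 69.1 and 69.4 CPM against 60.1, 60.4 and 57.1 CPM (0.27 ± 0.06). Aldh1l1, which burns formyl-folate, was higher at a low level (1.06 ± 0.21, 2.15, 1.59 and 2.05 against 1.10, 0.717 and 0.950 CPM). Gart (0.20) and Fpgs (0.25) were higher, and Folr2, at under 0.5 CPM in every library, was lower (-1.72). Of the serine hydroxymethyltransferases, cytosolic Shmt1 overlapped between the groups at 9.19, 8.73 and 9.69 CPM against 8.80, 10.4 and 9.74 CPM, and mitochondrial Shmt2 was higher at 120, 106 and 109 CPM against 91.3, 94.2 and 85.1 CPM (0.31 ± 0.06); the difference between these 2 changes was not tested. In the mitochondrion Aldh1l2 (0.31) and Mtfmt (0.27) were higher, and Mthfd1l, which releases formate, was lower with 52.2, 47.9 and 48.3 CPM against 87.2, 89.8 and 89.9 CPM (-0.85 ± 0.11, adjusted p = 1.5e-04), together with Mthfd2l (-0.48) and Amt (-0.50). Mthfd2 (-0.05 ± 0.08) and Tyms (0.08 ± 0.11) were not called. Calls of Fpgs, Gart, Mtfmt, Amt and Folr2 were lost in at least 1 of the fits that leave out a 1C-MIM or scramble library.

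Of 38 genes of the methionine cycle and choline list 10 were higher and 9 lower, also near the share over all genes. Among the higher ones were methionine synthase and its reductase. Mtr, methionine synthase, stood at 49.6, 52.9 and 55.8 CPM in 1C-MIM and at 29.2, 28.5 and 27.8 CPM in scramble (0.89 ± 0.06, adjusted p = 2.2e-06), and its reductase Mtrr had 25.8, 25.4 and 26.3 CPM against 18.9, 19.9 and 18.6 CPM (0.43 ± 0.07). The cobalamin receptor gene Cd320 had 28.9, 29.8 and 30.5 CPM against 19.8, 21.8 and 20.1 CPM (0.53 ± 0.06). In these 3 genes each 1C-MIM library was above all scramble libraries. The cobalamin carrier gene Tcn2 (0.28) and the chaperone gene Mmaa (0.66) were higher too, whereas Mmab, which makes adenosylcobalamin, was lower (-0.36). Mat2a, which makes S-adenosylmethionine, was lower with 177, 172 and 169 CPM against 226, 214 and 221 CPM (-0.35 ± 0.05), and Ahcy, which clears S-adenosylhomocysteine, was not called at 42.4, 39.9 and 40.4 CPM against 42.3, 48.9 and 48.3 CPM. Besides Inmt, the small-molecule methyltransferase Hnmt (-1.42, at or below 1.37 CPM in all 6 libraries) was lower, and Nnmt was not called. Betaine-homocysteine methyltransferase genes Bhmt and Bhmt2, Mat1a and Gnmt did not pass the filter on low counts. On the choline side Pcyt1b, a brain-type enzyme of phosphatidylcholine synthesis, had 7.75, 7.39 and 6.43 CPM against 13.6, 14.0 and 15.3 CPM (-0.99 ± 0.09), the choline transporter genes Slc44a1 (-0.44) and Slc5a7 (-0.64) and the betaine-making Chdh (-1.04, about 1 CPM or less) were lower, and Aldh7a1 (0.24) and Etnk1 (0.25) higher. Calls of Chdh, Slc5a7, Etnk1 and Slc25a26 were lost in 3 or more fits that leave out a 1C-MIM or scramble library.

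Transsulfuration enzymes were higher while the uptake of cystine and several enzymes of sulfur use were lower. Of 25 genes 6 were higher and 8 lower. Cbs, which condenses homocysteine with serine, stood at 4.19, 4.56 and 5.62 CPM in 1C-MIM and at 2.10, 2.36 and 2.78 CPM in scramble (0.99 ± 0.18), and Cth, which releases cysteine, had 3.63, 4.14 and 4.71 CPM against 1.69, 2.15 and 1.60 CPM (1.2 ± 0.18). Slc7a11, the cystine importer, had 23.2, 19.2 and 22.2 CPM against 37.0, 44.1 and 39.9 CPM (-0.91 ± 0.10). These 3 genes did not overlap between the groups. Csad, of taurine synthesis (-0.89), Tst (-0.95) and Gclm (-0.48), the modifier of the first glutathione enzyme, were lower, whereas the catalytic Gclc (-0.08 ± 0.06) and Gss (-0.06 ± 0.09) were not called. The taurine transporter gene Slc6a6 was higher, with means of 1036 ± 46 CPM in 1C-MIM and 695 ± 70 CPM in scramble (SD, n = 3), and so were Chac1 (0.56) and the selenoprotein gene Gpx1 (0.50).

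**Figure D4:**
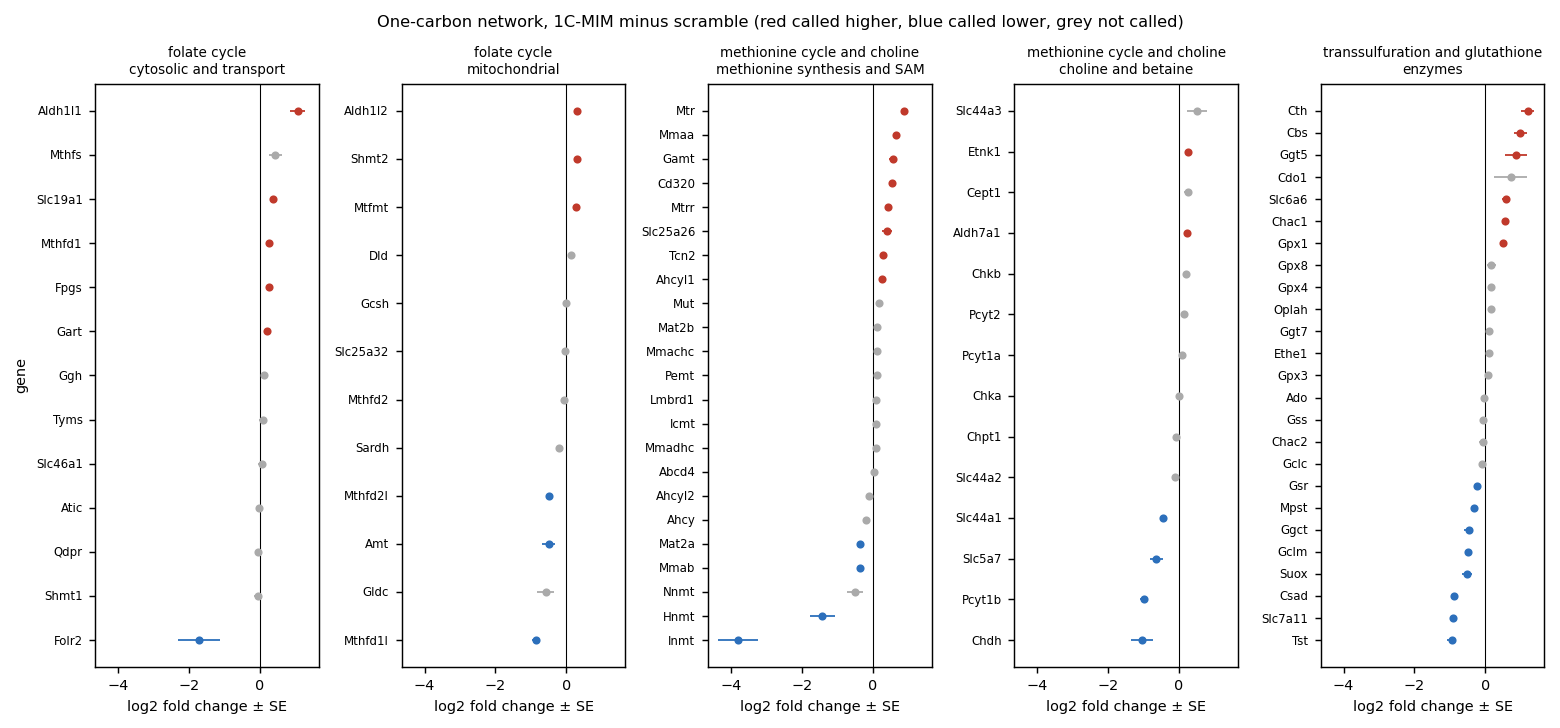
log2 fold change ± SE, 1C-MIM minus scramble (x axis), of tested genes of the folate, methionine, choline and transsulfuration groups (rows; a few members are not shown), with called genes red or blue and the others grey. Mtr (0.89) and Cth (1.2) lead their panels, and Inmt (-3.79) is the lowest of all.

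Pathways fed by the network were mixed. Of 22 genes of polyamine synthesis and methionine salvage 8 were higher and 5 lower: Amd1, which decarboxylates S-adenosylmethionine, had 103, 109 and 113 CPM in 1C-MIM against 66.4, 73.2 and 70.8 CPM in scramble (0.63 ± 0.06), spermidine synthase Srm (0.55) and the salvage enzyme Mri1 (0.83) were higher, and the antizyme inhibitor gene Azin1 was lower with 116, 107 and 110 CPM against 232, 233 and 241 CPM (-1.08 ± 0.07). Of 33 genes of purine and pyrimidine synthesis 6 were higher (3 without 1C-MIM replicate 1) and 15 lower, with Rrm2, the ribonucleotide reductase subunit of S phase (-0.85), Samhd1 (-0.70) and the salvage gene Hprt (-0.65) lower and Ctps (0.39) higher. The DNA methylation list had 4 higher and 3 lower of 19 (5 lower without control replicate 1 or without the 3 libraries numbered 1). There Uhrf1, which brings the maintenance methyltransferase to replicating DNA, had 57.3, 50.2 and 48.6 CPM against 85.6, 93.8 and 89.4 CPM (-0.78 ± 0.11), and Gadd45b (0.59) and Gadd45g (0.43) were higher. Of 53 histone methylation genes 16 were higher and 9 lower, none by 2-fold or more, with the arginine methyltransferase gene Prmt3 (0.63) among the higher and the demethylase gene Kdm3a (-0.55) among the lower.

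Amino acid genes were among those higher with 1C-MIM. Of 25 amino acid transporters 13 were higher and 3 lower, and of 41 genes of serine synthesis and ATF4 targets 16 were higher and 8 lower. Gpt2, the mitochondrial alanine aminotransferase, stood at 261, 225 and 264 CPM in 1C-MIM and at 52.2, 45.3 and 49 CPM in scramble (2.35 ± 0.12, adjusted p = 1.1e-06). Slc7a7, a light chain of the cationic amino acid exchanger, had 11.4, 9.36 and 10.6 CPM against 3.63, 3.58 and 2.68 CPM (1.66 ± 0.14). Fgf21, a hormone of the stress response, had 27.1, 25.3 and 26.9 CPM against 12.7, 9.32 and 11.0 CPM (1.26 ± 0.12). In none of the 3 did the groups overlap. Slc3a2 (0.62), Slc7a5 (0.53), Slc38a2 (0.52) and Ppp1r15a (0.74) were higher, while the ATF4 targets Slc7a11 and Nupr1 (-0.91) were lower and Mthfd2 was not called. Of the 6 genes of serine synthesis 1 was higher, Shmt2, and 2 lower. Unfolded protein response and heat shock genes were called less often than all genes, at 37.5% and 36.4% against 46%. In the unfolded protein response 7 of 24 were higher and 2 lower (5 lower without the libraries numbered 1). The chaperone genes Calr (0.62) and Hyou1 (0.57) were higher and Xbp1 lower (-0.26). Heat shock genes gave 4 higher and 4 lower of 22 (2 higher without 1C-MIM replicate 2 or 3 or scramble replicate 1, and 9 lower without the libraries numbered 1), with Hsph1 (0.76) and the small heat shock gene Hspb1 (-0.76) at the ends. NRF2 and antioxidant genes gave 5 higher and 12 lower of 32 (10 higher without the libraries numbered 1), with the aldose reductase gene Akr1b3 higher (1.03) and Tkt (-0.70) and Cat (-0.45) lower.

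Genes of insulin-like growth factor (IGF) signalling were mostly higher. Of 20 tested 14 were higher and 3 lower, with a median of 0.54, and all 7 ligands and receptors were higher. Igf2, the imprinted growth factor that muscle cells make on differentiation, stood at 731, 621 and 638 CPM in 1C-MIM and at 354, 303 and 317 CPM in scramble (1.03 ± 0.10, adjusted p = 2.6e-05). Its clearance receptor gene Igf2r had 235, 246 and 265 CPM against 168, 146 and 145 CPM (0.70 ± 0.11). Igfbp4, a binding protein that withholds IGF, had 490, 613 and 825 CPM against 140, 136 and 137 CPM (2.22 ± 0.16). In these 3 genes the groups were apart. The binding proteins Igfbp5 and Igfbp3 (both 1.27) and the proteases that cut binding proteins, Pappa (1.79), Pappa2 (1.91) and Htra1 (1.18), were higher. Stc1 was higher too, a call that limma-voom did not make. Of 26 imprinted genes 7 were higher and 6 lower (10 lower without control replicate 1). Besides Cdkn1c, Mest, Igf2 and Igf2r, the proteoglycan gene Dcn had 434, 438 and 441 CPM against 214, 231 and 227 CPM (0.97 ± 0.05), and Plagl1, a zinc finger factor, had 2.40, 1.48 and 1.92 CPM against 0.532, 0.478 and 0.373 CPM (2.05 ± 0.34). Peg10 (-0.83), Zrsr1 (-0.55), Ndn (-0.62) and H19 were lower, and Gnas, Peg3 and Ube3a were not called.

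Lists of secreted signals held some of the largest differences, Angptl7 among them. They were chosen with earlier results of these data known, so this is a description. Of 28 hormones and myokines 12 were higher and 9 lower. Fndc5, the precursor of irisin, stood at 64.8, 56.9 and 64.6 CPM in 1C-MIM and at 20.1, 17.2 and 18.2 CPM in scramble (1.74 ± 0.13), and Inhbb, an activin subunit, had 371, 458 and 536 CPM against 219, 225 and 203 CPM (1.08 ± 0.12). Postn, a matrix protein of repair, was higher (1.30), and Ctgf, a matricellular factor induced by YAP, was lower with 36.5, 23.0 and 20.2 CPM against 85.9, 74.7 and 91.8 CPM (-1.66 ± 0.21). Of 15 chemokines 12 were higher and 0 lower, with a median of 0.77. Cxcl5, which draws neutrophils, had 217, 334 and 337 CPM against 65.7, 79.2 and 79.4 CPM (1.98 ± 0.16), Cxcl1 had 32.5, 49.6 and 49.5 CPM against 8.08, 9.59 and 10.7 CPM (2.22 ± 0.17), and Ccl11, which draws eosinophils, had 23.4, 26.8 and 39.5 CPM against 5.32, 6.32 and 7.06 CPM (2.26 ± 0.20). Library 1 was the lowest in both groups for these 3 genes, and the groups did not overlap. Of 23 cytokines and NF-kappaB targets 11 were higher and 4 lower (2 lower over the whole list without 1C-MIM replicate 1 or 3 or scramble replicate 3), with Vcam1 higher (0.81) and Tslp (-1.38) and Il34 (-0.94) lower. Interferon response genes had 3 higher and 4 lower of 26, with Rtp4 (-1.29) and Ifit2 (-0.75) lower (7 lower without the libraries numbered 1, and 1 higher without 1C-MIM replicate 2 or scramble replicate 2). Macrophage markers summed to 2.11 to 3.64 TPM in 1C-MIM and 2.39 to 2.75 TPM in scramble, with 0 of the 2 tested called.

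Receptor pathways each held members in both directions. In the Notch list 9 of 20 were higher and 5 lower: the ligand gene Dll1 stood at 60.4, 61.7 and 64.1 CPM in 1C-MIM and at 13.8, 12 and 10.7 CPM in scramble (2.35 ± 0.11, adjusted p = 3.1e-07), its target Heyl had 237, 216 and 220 CPM against 74.7, 63.7 and 55.9 CPM (1.79 ± 0.15), the receptors Notch3 (0.94) and Notch1 (0.82) were higher and the glycosyltransferase gene Lfng was lower (-1.45). Among 39 genes of TGF-beta, activin and BMP signalling 12 were higher and 13 lower, with Bmp6 at 4.86, 3.18 and 2.36 CPM against 0.376, 0.205 and 0.272 CPM (3.58 ± 0.38), the coreceptor gene Tgfbr3 higher (1.19) and Ltbp2 lower (-0.94). Of 34 Wnt genes 11 were higher (7 without scramble replicate 1 or 2) and 8 lower; the receptors Fzd1 (0.94) and Fzd4 (0.88) were higher and the ligands Wnt10b (-1.80), Wnt6 (-1.34) and Wnt10a (-0.62) lower. YAP and TAZ targets gave 7 higher and 9 lower of 23, with Ctgf and the tissue factor gene F3 (-1.04) lower and Lats2 (0.50) and Amotl2 (0.49), which restrain YAP, higher. Semaphorin and axon guidance genes gave 21 higher and 5 lower of 42, with Slit2 (0.82), Robo2 (2.00), Sema6b (2.01) and Plxna1 (0.77) higher (8 lower without the libraries numbered 1). AP-1, EGR and KLF factors gave 17 higher and 13 lower of 39, with Fosl2 (0.57) higher and Klf4 (-0.78), Klf6 (-0.72) and Etv4 (-1.37) lower. In the clock list 8 of 22 were higher and 3 lower, with Per2 (1.01) and Hlf higher and Per3 (-0.90) lower. Glucocorticoid targets gave 7 higher and 8 lower of 17 (4 higher without 1C-MIM replicate 2 or scramble replicate 3), and atrophy and FoxO genes 8 higher and 5 lower of 24 (4 to 5 higher without 1C-MIM replicate 3 or scramble replicate 2 or 3, and 2 to 3 lower without these or 1C-MIM replicate 2), with the ubiquitin ligase gene Fbxo32 higher (0.57).

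Lists of matrix genes held members in both directions as well. Of 35 collagen genes 8 were higher and 14 lower: the fibrillar chains Col3a1 and Col5a2 (0.77) were higher, and Col8a2, Col14a1, the basement membrane chain Col4a5 (-1.43) and Col16a1 (-0.61) were lower. Col3a1 stood at 15267, 15593 and 15308 CPM in 1C-MIM and at 6828, 6667 and 7272 CPM in scramble. Of 19 proteases 13 were higher and 3 lower, and of 7 inhibitors 2 were higher and 4 lower. Mmp2 had 2101, 2297 and 2349 CPM against 965, 924 and 973 CPM (1.24 ± 0.07), Adamts15 had 5.28, 5.63 and 7.91 CPM against 0.626, 0.683 and 0.373 CPM (3.47 ± 0.26), and the inhibitor gene Timp3 was lower with 191, 163 and 163 CPM against 421, 406 and 453 CPM (-1.31 ± 0.09). The protease and inhibitor genes named here kept to 1 side in every library. Of 33 proteoglycan, laminin and other matrix genes 13 were higher and 11 lower, with Lum, the laminin chains Lama1 (2.37) and Lamb1 (1.04) and Vcan (1.16) higher and Lamb3 (-1.16) lower.

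Genes usually named for neurons and epithelia, which these cultures expressed at low to moderate levels, were mostly lower. Of 26 tested 17 were lower and 2 higher, with a median of -1.15. The list covers families of falls ranked above, such as neurofilaments, stathmins and keratins. It was chosen with earlier results of these data known, so its count and median partly restate that ranking. Tubb3, a neuronal tubulin, stood at 23.1, 20.7 and 20 CPM in 1C-MIM and at 72.6, 70.3 and 72.2 CPM in scramble (-1.76 ± 0.16), and Stmn4 had 0.634, 0.794 and 1.14 CPM against 5.26, 6.28 and 7.37 CPM (-2.87 ± 0.27). Neither gene overlapped between the groups. Markers of neurons and glia summed to 2.50 to 2.94 TPM in 1C-MIM and 6.46 to 6.52 TPM in scramble, of which Syn1 was the most abundant (-1.51); of its 8 genes only 2 passed the filter on low counts, and its part in the result was not tested. Of 10 connexins and pannexins 7 were lower and 1 higher (3 to 4 lower without 1C-MIM replicate 2 or 3 or scramble replicate 3). Gja1, the widespread connexin 43, was the higher one at 316, 320 and 323 CPM against 198, 206 and 246 CPM (0.56 ± 0.08), and Gja3 (-2.60) and Gjc1 (-0.34) were among the lower.

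Lists of lipid and lysosome genes held members in both directions. Of 35 genes of fatty acid synthesis and storage 11 were higher (7 without 1C-MIM replicate 1 or scramble replicate 2) and 14 lower: Lpl, the lipoprotein lipase, had 398, 575 and 672 CPM in 1C-MIM against 219, 223 and 233 CPM in scramble, Gpam (0.86) was higher, and Fabp5 (-1.35) and Fads2 (-0.56) were lower. Of 30 genes of fatty acid oxidation 4 were higher and 10 lower, with Cpt1a (0.26) up and Acaa2 (-0.52), Echs1 (-0.37) and Hadh (-0.26) down. Cholesterol synthesis had 7 higher and 9 lower of 31 (4 lower without 1C-MIM replicate 2 or 3 or scramble replicate 3, and 15 without the libraries numbered 1), with Hmgcs1 (-0.53) and Insig1 (-0.63) lower. Among 55 lysosome and autophagy genes 19 were higher and 11 lower: the cathepsin genes Ctsb and Ctsl were higher (0.54 and 0.46), and Map1lc3a, an autophagosome protein, had 357, 365 and 359 CPM against 201, 193 and 191 CPM (0.88 ± 0.05), while the receptors Bnip3 and Optn (-1.10) and Gabarapl1 (-0.60) were lower.

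**Figure D5:**
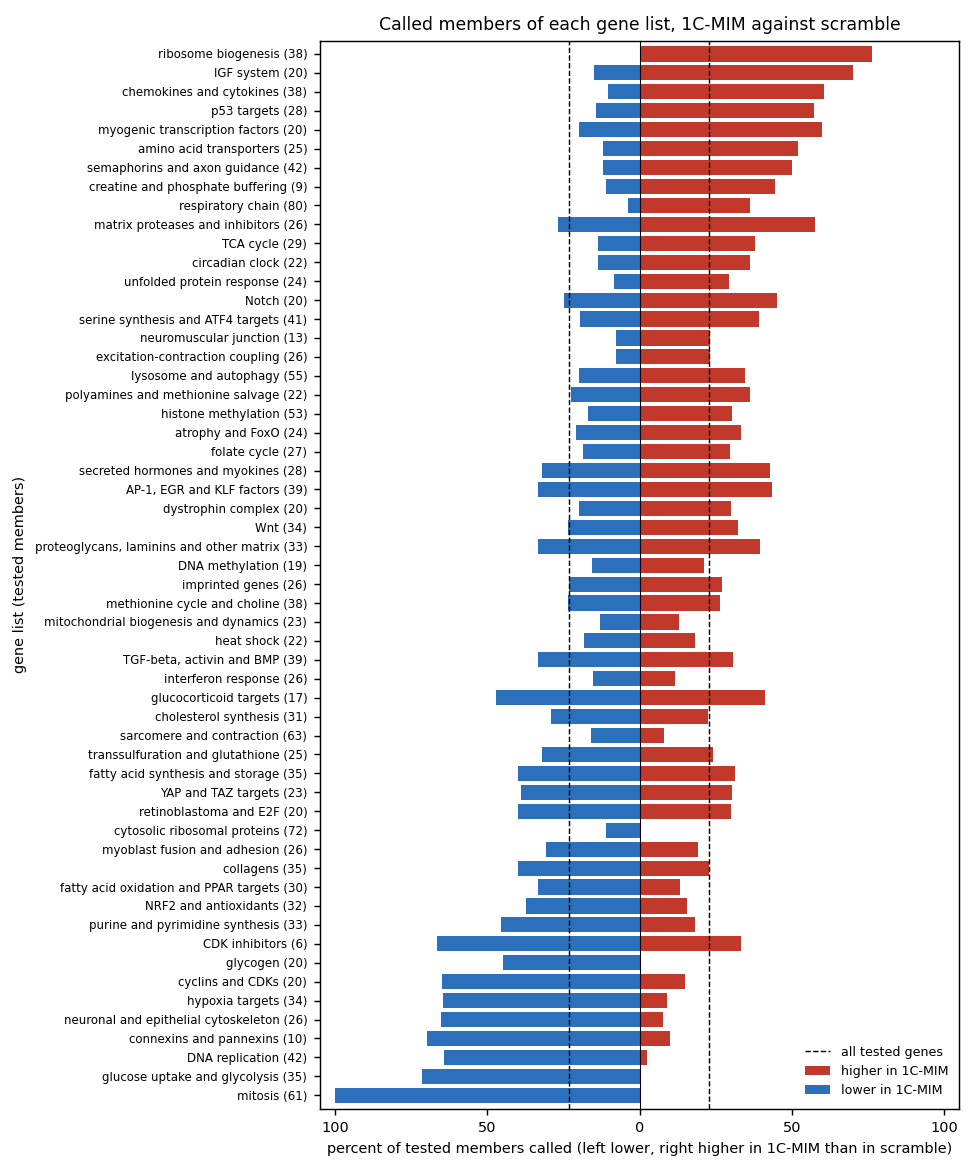
Percent of the tested members of each gene list that were called higher (right, red) or lower (left, blue) in 1C-MIM than in scramble, with the number of tested members in brackets and dashed lines at the shares over all tested genes, 22.9% and 23.2%. Mitosis stands at one end with 61 of 61 lower and ribosome biogenesis at the other with 29 of 38 higher.

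The labelled cell type had its markers. The 11 muscle fibre markers summed to 5390 to 6560 TPM in 1C-MIM and 3760 to 5170 TPM in scramble, and 2 were called higher, Myog and Ckm, and 1 lower, Cav3. The adipocyte list stood at 5.10 to 6.59 TPM over both groups, with Cidec, a gene of fat droplets, at 0. The endothelial list summed to 0.352 to 0.445 TPM in 1C-MIM and 0.224 to 0.243 TPM in scramble with Emcn at 0, and 1 of 2 tested was higher, Tek, which encodes an angiopoietin receptor (1.43 ± 0.32, at no more than 1.04 CPM). The bone and cartilage list was set by the osteopontin gene Spp1, at 5507, 6945 and 7106 CPM in 1C-MIM and 7536, 8687 and 8428 CPM in scramble, which was not called, with the other members at no more than 22.8 TPM; Sp7, the osteoblast factor, was lower (-3.68) at below 1 CPM in every library. Smooth muscle markers summed to 137 to 172 TPM in 1C-MIM and 197 to 231 TPM in scramble with 1 of 4 tested lower, and tendon and fibroblast markers to 417 to 479 and 525 to 599 TPM with 2 of 4 higher and 2 lower.

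Some of the genes named above share exon sequence with another gene in GENCODE vM21. Those on opposite strands are Aldh1l2 with D10Wsu102e, Aldh7a1 with Phax, Bmp6 with Txndc5, Bysl with Ccnd3, Ccnd1 with LTO1, Cdca8 with 9930104L06Rik, Chdh with Cacna1d, Csad with Zfp740, Ctsb with Fdft1, Fpgs with Eng, Gins2 with Gse1, Gja5 with Gpr89, Gnas with Gm20721, H19 with Gm27483, H19 with Gm27786, Lig1 with Zswim9, Mest with Copg2, Myl2 with Ccdc63, Ncapg with Lcorl, Nefl with Nefm, Pfkp with Pitrm1, Rrp1b with Hsf2bp, Ryr3 with Aven, Shmt1 with Smcr8, Slc25a26 with Lrig1, Slc7a7 with Oxa1l and Zrsr1 with Commd1. On the same strand are Foxm1 with Gm44596, Foxm1 with Tex52, Igf2 with Gm49394 and Lats2 with Gm49361. The sources used here do not say whether strand was used in counting, so reads of such pairs cannot be told apart, and those values are uncertain to that extent.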

How the data were processed

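RNA of C2C12 fibres was sequenced in 9 libraries, 3 per medium, after isolation with an RNeasy kit and library construction with a SMARTer mRNA-seq kit, per the labels' protocols. For each library the authors deposited whole counts per RefSeq transcript, with FPKM and TPM in columns beside them, per the file headers. The deposited FPKM were not used for any value, and the deposited TPM served for levels between genes and summed markers. Per the submitters' processing notes the tools included Trim Galore 0.6.7, STAR, Salmon 1.5.2, SAMtools 1.15.1, StringTie 2.2.1, featureCounts of Subread 2.0.1 and DESeq2 1.28.0, with the build GRCm39; their order and settings were not used here.

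The 33984 transcripts carry 24063 symbols, of which 5261 have several transcripts; the transcript with the highest mean count stood for the symbol. The 10057 genes below edgeR's filterByExpr held 0.028% of the counts. All 9 libraries entered 1 robust quasi-likelihood fit in edgeR 4.0.16 (R 4.3.3) after TMM scaling, with a common biological coefficient of variation of 0.0842. Adjusted p is Benjamini-Hochberg over all tested genes, and the SE is the log2 difference over the square root of F. The fit was first tested on simulated data with 200 changed genes, far fewer than were called here. It recovered 36% of changes of 1.25-fold, 72% of 1.5-fold, 86% of 2-fold and 96% of 4-fold. Of its 157 calls 12 were false. Alternatives used DESeq2 1.42.0, limma-voom (limma 3.58.1), other scalings, filters and a minimum fold of 1.2, and left out each library in turn.

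Named genes are the 15 largest rises and falls among called genes with at least 5 CPM and no overlap, the 10 largest TPM gains and losses, up to 6 members with the smallest p of each of 65 lists, and members of the folate, methionine, transsulfuration, imprinted and CDK inhibitor lists. Predicted genes, pseudogenes and some multigene families were left out of the rises and falls. The comparison, its members and the lists were chosen with earlier results of these data known. Promoters came from RefSeq on GRCm38.p6, matched by symbol. Exon overlaps came from GENCODE vM21, and its coordinates were not mixed with the deposited build. A few list members are counted in their lists but not reported here. Same-numbered scramble and control libraries deviated together from their group means (correlations of 0.48, 0.21 and 0.17). Control library 3, however, correlated better with scramble library 2, at 0.24. These values do not settle whether the numbers pair libraries, and the main fit has no replicate block.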

Additional observations from a re-analysis of the deposited data

How the results depend on the processing

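Between 1C-MIM and scramble the count of called genes stayed within 1.5 times 6449 under every alternative run except the test against a minimum fold of 1.2, which left 2752 genes, 1187 higher and 1565 lower. Leaving out 1 library at a time gave 5267 to 7473 called, 2595 to 3678 higher and 2672 to 3795 lower. Without the 3 libraries numbered 1 there were 7746. Scaling by library size alone gave 2745 higher and 3651 lower, and the largest shift of the median of all genes under another scaling was 0.034 on the log2 scale. Of the 391 named genes that were called, 391 kept their direction under every setting. The call was kept under every setting by 297, and by 356 when the minimum fold is set apart. The settings refit all or most of the libraries from which these genes were picked, so kept directions add no support. Between scramble and control DESeq2 called 4 genes, 4 of them higher. Leaving out 1 library at a time gave 0 to 3 called there, 0 to 2 higher and 0 to 1 lower, with the 3 calls made without control replicate 1. Without the 3 libraries numbered 1 there were 96, 81 higher and 15 lower; the cause was not tested. Whether the shared replicate numbers pair 1C-MIM with scramble libraries was not settled by their correlations either. Deviations from the group mean correlated at 0.15, 0.04 and 0.03 between same-numbered libraries. Among scramble libraries 1C-MIM library 3 correlated best with number 2, at 0.09. With the replicate block 7309 genes were called, 3645 higher and 3664 lower, and 24 ribosomal protein genes were lower in place of 8. Between scramble and control the replicate block called 0 genes, as the fit without it did.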

Other observations

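Without the 3 libraries numbered 1, some genes differed between scramble and control fibres, a comparison in which the fit of all 9 libraries called 0. Of the 96 called, 81 were higher with the scramble medium, among them the sarcomere genes Myh7 (0.42) and Actn2 (0.42). For Myh7, control library 1, left out of that fit, had 207 CPM, above the 176, 95.2 and 102 CPM of scramble. For Actn2 it had 43.1 CPM, above the 36.8, 23.2 and 24.7 CPM of scramble. In the fit of all 9 libraries the differences were 0.07 for Myh7 and 0.11 for Actn2, and neither was called. Heyl (0.41), Fndc5 (0.37), Igf2 (0.31) and Col3a1 (0.22), which were higher with 1C-MIM than with scramble, were among the 81 too. The other 15 were lower with the scramble medium, among them 3 inhibitors of basic helix-loop-helix factors. Id2 fell by 0.38 on the log2 scale there, Id1 by 0.31 and Id3 by 0.26. Id2 stood at 66.7, 77.5 and 77.8 CPM in scramble and at 73.0, 98.1 and 103 CPM in control, so library 1 was the lowest of its group in both. Mthfd1l, the mitochondrial enzyme that releases formate, fell by 0.21 there; control library 1, which that fit leaves out, stood at 75.6 CPM, below the 87.2 to 89.9 CPM of the 3 scramble libraries. These genes were picked after their values were seen.

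Counts of the transcripts of a gene moved together between 1C-MIM and scramble. Over 2900 symbols with at least 2 transcripts of 5 CPM or more, the range of the log2 difference between transcripts had a median of 0.0028, and over all transcripts tested 1 symbol, Ece2, had transcripts called in opposite directions. Transcripts that share exons share reads, so these values are not independent.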
